A study of Dunaliella salina with 6 samples.

Results

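The fasciclin-domain genes of the green alga *Dunaliella salina* Bardawil were taken as every gene whose transcript carries Pfam accession PF02469 in the authors' annotation. The rule found 14 of the 25081 genes in the expression table, and all 14 had a gene model and a row of values. The family was chosen because DsB_g14470, 1 of its genes, was among the most iron-responsive genes in earlier results of the same libraries. Its difference between the groups is therefore given as a description without a test, while the other 13 members were chosen by their domain alone.

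The measured groups were wild-type vegetative cells of strain UTEX LB 2538 in liquid medium with 0 µM added iron and the same strain with 1.5 µM added iron. Each group had 3 flasks, and 1 poly(A) RNA library was made from each. All flasks held medium with 1 M NaCl and were shaken at 140 rpm and 24 °C in constant light for 3 days. Both groups are a single strain at a single time, and the sources used here do not give the iron left in the medium or carried over from the precultures.

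The fasciclin or FAS1 domain is an old extracellular fold, named after an insect protein of axon bundles. Proteins that carry it are mostly secreted or held at the cell surface by a lipid (GPI) anchor, and many take part in adhesion between cells or between a cell and its matrix. Examples are periostin in vertebrates, the fasciclin-like arabinogalactan proteins of plant cell walls and the Algal-CAM adhesion protein of *Volvox*. *Dunaliella* swims as single cells enclosed by a flexible surface coat and has no rigid wall, and the annotation gives no symbol or product name to any of the 14 genes. Their roles in this alga are thus known here only from the domain. No sequence of these genes was used here, so none is shown.

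Expression values were FPKM, that is fragments scaled to transcript length in kb and to 1000000 mapped reads, which allow levels to be compared between genes. Steps between the lowest values implied 18500000 to 25000000 reads per library on the authors' scale. Over all genes the libraries without added iron summed to 472982 to 537245 FPKM, and those with added iron to 538457 to 610113 FPKM. FLD1, the flavodoxin gene that marks iron limitation in algae, had 3617 to 5890 FPKM without added iron and 4.37 to 5.62 FPKM with it, in the direction of the labels. In a principal component analysis of the 13909 tested genes, replicate 3 without added iron scored 18.3 on the leading axis, against 30 and 32.4 for replicates 1 and 2 of that group and -28.4 to -25.2 with added iron.

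Most of the family had values at or near 0 FPKM in both groups. A mean of at least 1 FPKM over the 6 libraries, the level needed to enter the test, was reached by 4 of the 14 members (28.6%). They were DsB_g14470, DsB_g14451, DsB_g08390 and DsB_g24185. The same level was reached by 55.5% of all genes and by 90.0% of the 7573 models with any Pfam domain. Among 154 Pfam families of 10 to 20 genes, the median family had 100% of its genes at this level, and 3 families, fasciclin included, had 28.6% or less. The other 2 were the collagen triple helix repeat, with 1 of 13 genes, and the dimerisation domain of hAT transposases, with 3 of 18 genes. Of the 14 members, 3 were listed at 0 in every library, where 23.7% of all genes in the table were. The other 7 of the 10 quiet fasciclin members peaked at 0.344 FPKM or less. The lowest mean among the 4 active members was 2.21 FPKM and the highest among the quiet ones was 0.132 FPKM, so no member lay near the limit of 1.

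**Figure D1:**
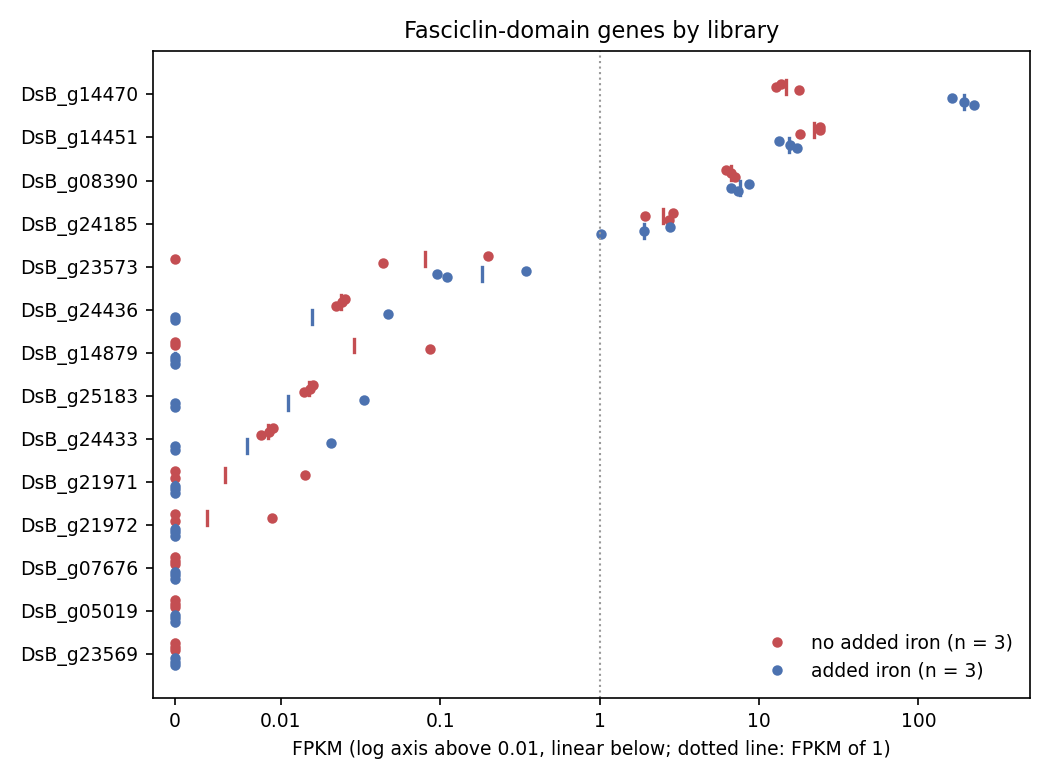
FPKM of the 14 fasciclin-domain genes in each library, ordered by mean level, with no added iron in red above added iron in blue. Points are libraries (3 per group) and short vertical lines are group means. The 4 upper genes lie above the dotted line at 1 FPKM in all 6 libraries, and the groups stand far apart for DsB_g14470.

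The gene models divided the family in the same way. All 4 active members had annotated untranslated regions (UTRs), and the 10 quiet members had coding exons only. Over the whole annotation, 96.6% of the 10550 models with a UTR were tested, and 25.6% of the 14524 models without one. The sources used here do not say whether these libraries were used to draw the UTRs. Each of the 14 genes had 1 annotated transcript, with 4 to 18 exons (median 10, the same as over all models with a Pfam domain). Introns made up 51.4% to 87.7% of the gene spans. Coding lengths ran from 483 to 2556 nt, and that of DsB_g21971 was the only 1 of the 14 that was not a multiple of 3. DsB_g05019 alone carried a further domain, the lamin tail domain (PF00932), and no member overlapped another gene model.

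**Figure D2:**
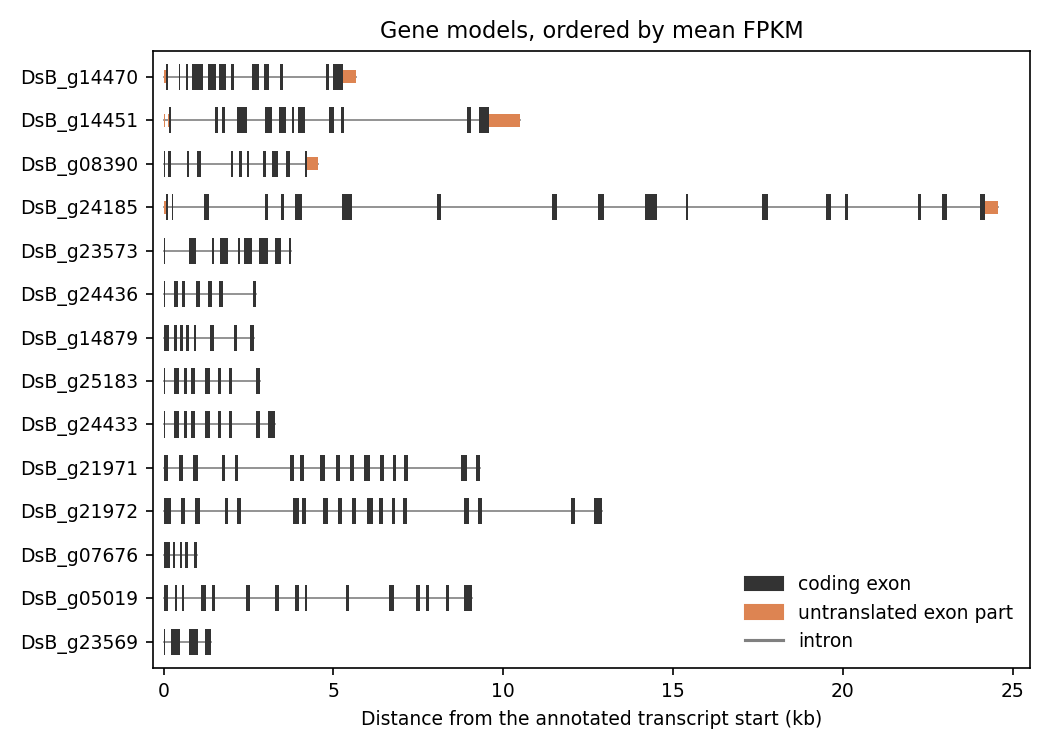
Exon structure of the 14 gene models, drawn 5′ to 3′ from the annotated transcript start in kb and ordered by mean FPKM. Black boxes are coding exons, orange boxes untranslated parts and grey lines introns. UTRs appear in the 4 uppermost models only, and DsB_g24185 is the longest at 24568 nt.

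DsB_g14470 was the member with the highest level when iron was added. In the authors' own assembly the gene occupies positions 5396280 to 5401946 of chromosome 8, plus strand. It has 12 exons, a coding length of 1779 nt, a 5′ UTR of 76 nt and a 3′ UTR of 395 nt. Its FPKM was 13.6, 12.7 and 17.8 in replicates 1, 2 and 3 without added iron, against 162, 193 and 223 in replicates 1, 2 and 3 with added iron. Every library without added iron was far below every library with it. The group means were 14.7 ± 2.70 FPKM without added iron, against 193 ± 30.4 FPKM with added iron (SD, n = 3 each). The level without added iron was 7.63% of that with added iron, and between 5.69% and 11.0% in the 9 possible pairs of libraries. In a bulk culture, fewer cells with the transcript and less transcript per cell cannot be told apart.

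On the log2(FPKM + 1) scale the difference of DsB_g14470, no added iron over added iron, was -3.63 (SE 0.16). It ranked 4 of the 13909 tested genes from the most negative value, the property for which the gene was singled out. Its values rested on many reads: the steps implied 505 to 845 reads per library without added iron and 7080 to 12600 with it. By mean FPKM it stood above 64.2% of tested genes without added iron and above 97.3% with it. Without replicate 3 of no added iron, its highest value in that group, the difference was -3.76.

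DsB_g14451 was the other active fasciclin gene of chromosome 8, at 5074136 to 5084640, also plus strand. The quiet member DsB_g14879 lies on the same chromosome, on the minus strand. A gap of 311639 nt with 18 gene models separated DsB_g14451 from DsB_g14470. The 2 genes shared their exon architecture. Each had 12 coding exons, and in all 12 places the lengths differed by a multiple of 3 nt, with 2 exons of equal length and a largest difference of 66 nt. Among the members there were 3 further pairs with equal numbers of coding exons, and in these 2 of 8, 4 of 18 and 2 of 9 exons differed by a multiple of 3. Coding lengths were 1794 nt for DsB_g14451 and 1779 nt for DsB_g14470.

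The levels of DsB_g14451 did not follow those of DsB_g14470. Its FPKM was 24.0, 24.0 and 18.1 in replicates 1, 2 and 3 without added iron, against 13.4, 15.7 and 17.2 in replicates 1, 2 and 3 with added iron. The groups did not overlap, as was the case for 30.2% of all tested genes, and the values without added iron were the higher ones, as for 14.2%. Means were 22.0 ± 3.38 FPKM without added iron, against 15.4 ± 1.89 FPKM with added iron (SD, n = 3 each). The log2 difference was 0.48 (SE 0.14, 95% interval 0.17 to 0.80) and missed the threshold, with a limma adjusted p of 0.0650 over all tested genes.

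The call on DsB_g14451 turned on replicate 3 and on scaling. Without replicate 3 of no added iron the log2 difference was 0.61 (limma adjusted p = 0.0163), and in replicates 1 and 2 of both groups alone it was 0.69 (0.0169). It also passed with median-of-ratios scaling (0.0321), quantile normalization (0.0230) and columns rescaled to an equal sum (0.00594). The last of these moved the median log2 difference of all tested genes from 0.00 to 0.17. The share of all tested genes called higher was 4.19% in the main fit. It was 6.69% without replicate 3 of no added iron and 7.26% in replicates 1 and 2 alone. With median-of-ratios scaling it was 6.10%, with quantile normalization 7.56% and with columns rescaled to an equal sum 22.9%. Over all 14 alternatives the log2 difference of DsB_g14451 was 0.39 to 0.69, with adjusted p between 0.00594 and 0.206.

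DsB_g08390 lies on chromosome 4, minus strand, at 18421977 to 18426533, with 11 exons and the shortest coding length of the active members, 888 nt. Its FPKM was 6.20, 6.71 and 7.09 in replicates 1, 2 and 3 without added iron, against 8.64, 6.70 and 7.35 in replicates 1, 2 and 3 with added iron. The groups overlapped. The log2 difference was -0.15 (SE 0.10, 95% interval -0.39 to 0.08; limma adjusted p = 0.394). The interval leaves out a change of the size seen for DsB_g14470 in either direction. Without replicate 1 of added iron, the highest of the 6 values, the difference was -0.066.

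DsB_g24185 spans 24568 nt of chromosome 16, plus strand, at 2826428 to 2850995, and has the longest coding sequence of the family (2556 nt in 18 exons). Its FPKM was 2.91, 1.93 and 2.71 in replicates 1, 2 and 3 without added iron, against 2.77, 1.90 and 1.02 in replicates 1, 2 and 3 with added iron. The groups overlapped, and the lowest value was that of replicate 3 with added iron. The log2 difference was 0.31 (SE 0.23, 95% interval -0.22 to 0.85; limma adjusted p = 0.449). Its size rested on single libraries: it was 0.079 without replicate 3 of added iron, 0.53 without replicate 1 of added iron and 0.034 in replicates 1 and 2 alone. With columns rescaled to an equal sum it was 0.52. The steps implied 72.1 to 178 reads per library for this gene and 118 to 227 for DsB_g08390, against 740 or more for DsB_g14451.

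Of the 3 tested members besides DsB_g14470, 0 passed an adjusted p of 0.05 by limma and 1, DsB_g14451, had an unadjusted p under 0.05. Over all tested genes 9.39% passed the adjusted limit, and no share is given here for the unadjusted one. The median log2 difference of these 3 members was 0.31, against 0.00 for all tested genes. It is the value of DsB_g24185 alone, which did not pass and ran from 0.034 to 0.53 over the alternatives. With DsB_g14470, the gene the family was chosen for, the median was 0.08, and it took either sign over the alternatives, from -0.088 in replicates 1 and 2 alone to 0.26 with columns rescaled to an equal sum. In profile the 3 genes were not among those nearest to DsB_g14470. Nearness was ranked over the 13909 tested genes by Euclidean distance between centred log2(FPKM + 1) profiles. From the nearest, DsB_g08390 ranked 3426, DsB_g24185 12712 and DsB_g14451 13209. Pearson correlations of log2(FPKM + 1) with DsB_g14470 over the 6 libraries were 0.57 for DsB_g08390, -0.52 for DsB_g24185 and -0.84 for DsB_g14451. They are given as descriptions, since group sets most of the profile of DsB_g14470.

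**Figure D3:**
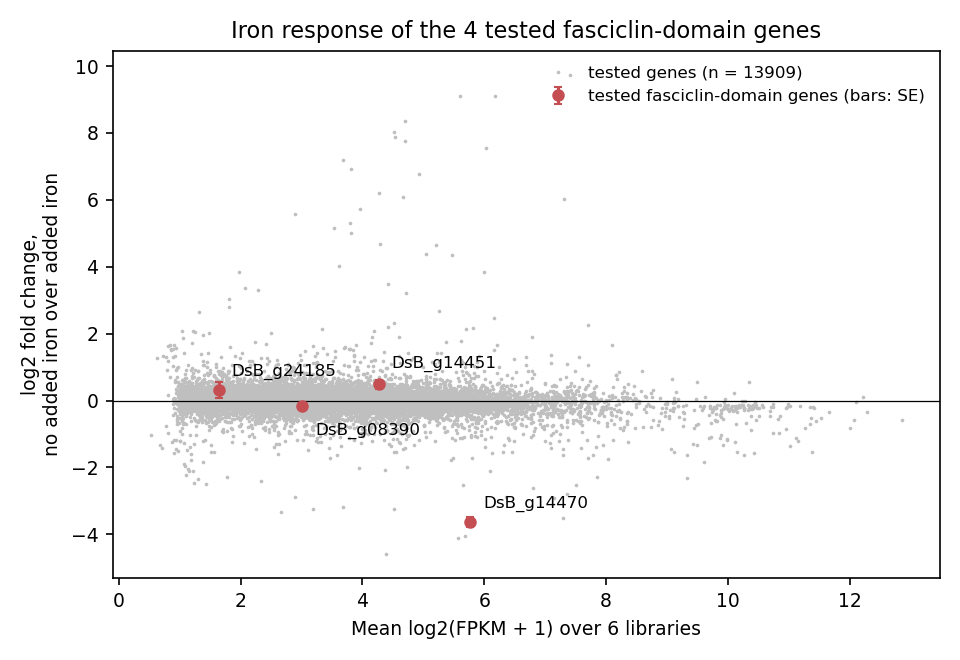
Log2 fold change, no added iron over added iron, against mean log2(FPKM + 1) over the 6 libraries, for the 13909 tested genes (grey) and the 4 tested fasciclin-domain genes (red, bars: SE). DsB_g14470 lies at -3.63, at the lower edge of the cloud, while the other 3 lie between -0.15 and 0.48.

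The order of levels within the family thus differed between the groups. Without added iron DsB_g14451 was the highest member in every library, at 18.1 to 24.0 FPKM, and DsB_g14470 followed at 12.7 to 17.8 FPKM. With added iron DsB_g14470 came first at 162 to 223 FPKM and DsB_g14451 second at 13.4 to 17.2 FPKM. Of the active members, DsB_g08390 came after both and DsB_g24185 last in all 6 libraries, with no overlap between neighbours in this order in either group. The ratio of DsB_g14470 to DsB_g14451 was 0.569, 0.530 and 0.981 in replicates 1, 2 and 3 without added iron, and 12.1, 12.3 and 13.0 in replicates 1, 2 and 3 with added iron.

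The 14 members together summed to 47.0, 45.4 and 45.9 FPKM without added iron, against 188, 217 and 249 FPKM with added iron. DsB_g14470 made up 29.0%, 28.0% and 38.8% of the sum without added iron, against 86.5%, 88.8% and 89.7% with it. DsB_g14451 made up 39.5% to 52.8% without added iron and 6.91% to 7.20% with it. The 10 quiet members together contributed 0.0716 to 0.249 FPKM without added iron and 0.0960 to 0.444 FPKM with it. Apart from DsB_g14470, the family summed to 28.1 to 33.4 FPKM without added iron and 24.4 to 25.7 FPKM with it.

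**Figure D4:**
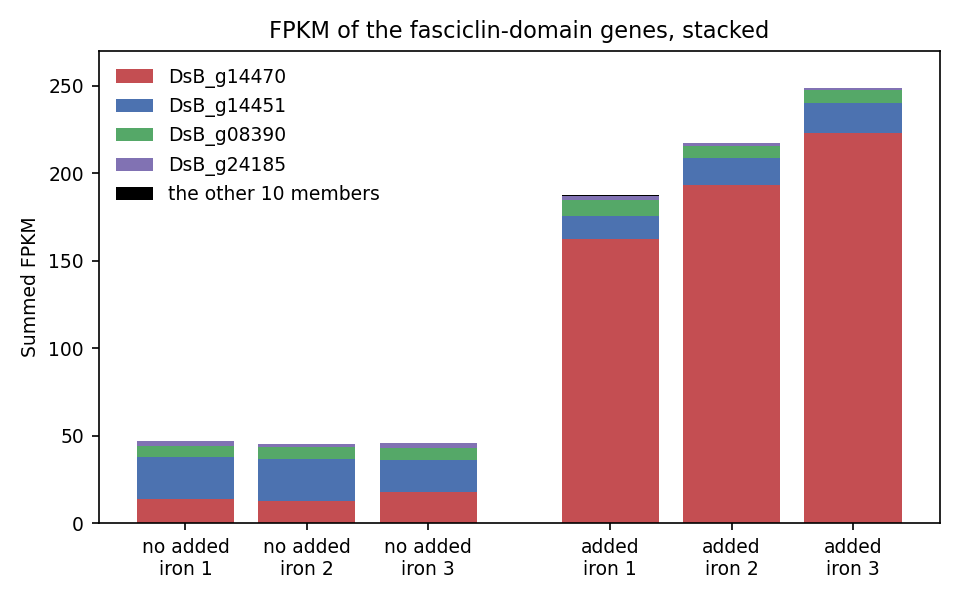
Summed FPKM of the fasciclin-domain genes in each library, stacked by gene, with the 3 libraries without added iron on the left and the 3 with added iron on the right. DsB_g14470 (red) spans 12.7 to 17.8 FPKM on the left and 162 to 223 FPKM on the right, while the rest of the family sums to 28.1 to 33.4 FPKM on the left and 24.4 to 25.7 FPKM on the right.

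No tested gene lay next to DsB_g14470. The nearest gene models, DsB_g14469 at a gap of 2469 nt and DsB_g14471 at 2343 nt, were both listed at 0 in every library. The nearest tested genes were DsB_g14466, 52505 nt away, and DsB_g14474, 31695 nt away. Their log2 differences were -0.38 (limma adjusted p = 0.779) and 0.05 (0.944), so neither passed the threshold. The nearest models on both sides of DsB_g14451 were tested, DsB_g14450 and LAG1 with a ceramide synthase domain, at 0.11 (0.684) and 0.08 (0.653).

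The 5 genes whose profiles lay nearest to that of DsB_g14470 were FDX1B, DsB_g19883, DsB_g14915, DsB_g21645 and APX1A. Likeness was the Euclidean distance between log2(FPKM + 1) profiles over the 6 libraries, each centred on its own mean. It was 0.49 for FDX1B, annotated as Ferredoxin-1, an iron-sulfur electron carrier of photosynthesis. FDX1B had 47.4 ± 16.7 FPKM without added iron, against 529 ± 16.7 FPKM with added iron (SD, n = 3 each). DsB_g19883, without a domain, had a distance of 0.60 and 1.01 ± 0.0887 FPKM without added iron, against 19.1 ± 1.29 FPKM with added iron (SD, n = 3 each). DsB_g14915, on chromosome 8 from 11927287 to 11930585 with a Pfam domain of unknown function (PF13301), had a distance of 0.63. It averaged 3.32 ± 0.910 FPKM in cultures lacking added iron and 38.0 ± 0.764 FPKM in those given iron (SD, n = 3 each).

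The remaining neighbours in profile carry iron cofactors by their domains. DsB_g21645, with Rieske iron-sulfur domains, had a distance of 0.67 and 11.9 ± 2.97 FPKM without added iron, against 210.0 ± 14.8 FPKM with it (SD, n = 3 each). APX1A, with a heme peroxidase domain, had a distance of 0.69 and 10.5 ± 1.41 FPKM without added iron, against 196 ± 17.0 FPKM with it (SD, n = 3 each). Pearson correlations of these 5 genes with DsB_g14470 were 0.99 to 1.00 over 6 libraries that fall into 2 groups. In 4 of the 5 genes, as in DsB_g14470, replicate 3 had the highest value of the libraries without added iron, and DsB_g19883 was the exception. The 5 genes were picked for likeness over these same libraries, so this shared feature is no separate result. With added iron, DsB_g14470 ran from 162 to 223 FPKM over the libraries and FDX1B from 510 to 542 FPKM.

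**Figure D5:**
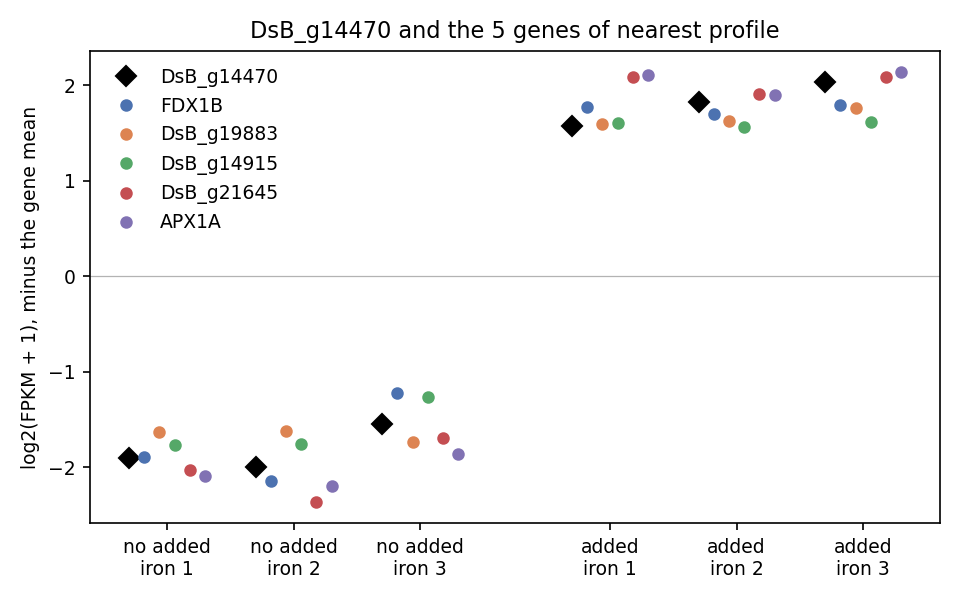
Centred log2(FPKM + 1) of DsB_g14470 (black diamonds) and the 5 genes of nearest profile (coloured circles) in each library, no added iron on the left and added iron on the right. All 6 genes lie below their own mean in every library without added iron and above it in every library with added iron.

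Of the 10 quiet members, 5 fell into 2 groups of like structure. DsB_g24433 and DsB_g24436 lie 19238 nt apart on opposite strands of chromosome 16, and DsB_g25183 lies on the unplaced scaffold_080. DsB_g25183 shared 7 coding exons of equal length and order with DsB_g24433 (9 exons) and 6 with DsB_g24436 (7 exons). DsB_g21971 and DsB_g21972 are neighbours on chromosome 13, head to head across 16470 nt, and shared 11 coding exons of equal length in the same order, of 16 and 18. Of the 91 pairs of members, 83 shared 0 or 1 exon of equal length. DsB_g23569 (4 exons) and DsB_g23573 (9 exons), on the minus strand of chromosome 15 and 15296 nt apart, shared 2 exons that followed each other. DsB_g05019 also shared 2 with each of DsB_g21971 and DsB_g21972, but those did not follow each other. DsB_g07676 shared at most 1 exon of equal length with any member and DsB_g14879 shared 0.

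The traces of signal in the 5 genes of like structure could not be assigned to single genes. DsB_g24433, DsB_g24436 and DsB_g25183 were above 0 in the same 4 libraries, all 3 without added iron and replicate 1 with it. In each of the 3 libraries without added iron their values stood in the same ratio of 1 to 2.72 to 1.72, and together they amounted to 0.565 to 0.753 of a read per library, depending on the length correction. In replicate 1 with added iron the ratio was 1 to 2.28 to 1.62, and the 3 genes summed to 1.31 to 1.75 reads. DsB_g21971 and DsB_g21972 were above 0 in 1 library, replicate 2 without added iron, and together implied 0.91 to 1.00 read. Counting tools can give fractions by dividing a read among the places it matches. The sources used here do not say how the authors' counting treated such reads, so a level of these 5 genes is uncertain and no difference between the groups is given for them.

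Of the other quiet members, DsB_g23573 was the highest. Its FPKM was 0.199, 0 and 0.0435 in replicates 1, 2 and 3 without added iron, against 0.344, 0.0960 and 0.110 in replicates 1, 2 and 3 with added iron. With transcript lengths reduced by 202 nt these values implied 4.01, 0 and 1 reads without added iron, against 7.99, 2 and 3.01 reads with it, so the groups overlapped at a handful of reads. DsB_g14879 was above 0 in replicate 3 without added iron only, at 0.0862 FPKM or 1 read. DsB_g05019, DsB_g07676 and DsB_g23569 were listed at 0 in all 6 libraries. At these depths a difference between the groups could not be measured for the quiet members, none of which exceeded 0.344 FPKM in any library.

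Related surface genes were examined by domain. Of 20 domains of extracellular and adhesion proteins, 8 were found in the annotation, in 38 models, 24 of which were tested. By limma 1 of the 24 was higher and 1 lower without added iron, where 4.19% and 5.2% of all tested genes were. An unadjusted p under 0.05 was reached by 5 of the 24. The all-gene shares are for the adjusted p, so this count cannot be read against them. The median log2 difference was 0.06, against 0.00 for all tested genes. DsB_g21171 (chromosome 13, 44604 to 48318), with a collagen triple helix repeat, had 5.91 ± 2.02 FPKM without added iron, against 11.4 ± 1.97 FPKM with added iron (SD, n = 3 each). It fell by 0.87 on the log2 scale without added iron (limma adjusted p = 0.0348). DsB_g00650 (chromosome 1, 10190052 to 10216411), with exostosin and EGF-like domains, had 21.0 ± 3.37 FPKM without added iron, against 14.7 ± 0.663 FPKM with added iron (SD, n = 3 each). It rose by 0.48 (limma adjusted p = 0.0486).

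Both calls lay close to the threshold, and in several alternatives 0 genes of this list passed in each direction. The 9 genes with a C-type lectin domain, a carbohydrate-binding fold of surface proteins, were all tested. By limma 0 of them passed the adjusted limit, where 9.39% of all tested genes did. None had an unadjusted p under 0.05, a limit for which no all-gene share is given here. Their log2 differences were -0.13 to 0.45. The list also holds intracellular proteins that share a domain, such as CHLD1, annotated by the symbol of a magnesium chelatase subunit, at -0.18 (limma adjusted p = 0.427). None of the 38 models had a fasciclin domain.

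Genes for the GPI anchor, by which many fasciclin proteins of plants and animals are held at the membrane, were found for 8 of 11 domains searched. All 9 models were tested, and by limma 0 passed, where 9.39% of all tested genes did. An unadjusted p under 0.05 was reached by 1 of the 9, and no all-gene share is given here for that limit. The median log2 difference was 0.13, and the range was -0.05 to 0.39. PIGA1, for the first sugar transfer of anchor synthesis, had 4.44 ± 0.399 FPKM without added iron, against 3.93 ± 0.480 FPKM with added iron (SD, n = 3 each; limma adjusted p = 0.457). PIGK1, the protease-like subunit that attaches the anchor, had 19.9 ± 1.76 FPKM without added iron, against 20.7 ± 2.71 FPKM with added iron (SD, n = 3 each; limma adjusted p = 0.824). VPE1 had the largest difference, 0.39 (limma adjusted p = 0.114), and was the 1 gene with an unadjusted p under 0.05. It shares the PIGK1 peptidase domain and bears the symbol of a vacuolar processing enzyme. With columns rescaled to an equal sum, 5 of the 9 passed as higher, where 22.9% of all tested genes did and their median log2 difference was 0.17.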

How the data were processed

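RNA of 6 *Dunaliella salina* Bardawil cultures, 3 per group, was sequenced with single-end reads of 50 nt. The authors aligned them with STAR 2.4.0j to their own assembly and computed FPKM with Cuffdiff 2.0.2, per the submitters' processing notes and the series' design text. The FPKM values were used as deposited. Coordinates, exons and Pfam accessions come from the authors' deposited annotation, count from 1, and Pfam names are general knowledge. The sources used here do not state strandedness or the handling of reads with several matches.

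The 13909 genes averaging at least 1 FPKM were tested. Values as log2(FPKM + 1) went into limma 3.58.1 (R 4.3.3) with a single group term, a mean-variance trend, two-sided tests and Benjamini-Hochberg adjustment over all tested genes at 0.05. Fold changes on this scale understate the change of low genes. The fit was tested on simulated data with known changes. Python 3.11.15 with pandas 2.3.3 did the rest. Reads per library were estimated from the step that low values share. Only 18.5% to 44.5% of values of fewer than 10 reads were whole to within 0.05, so no count model and no counting interval was used.

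The members, domain lists and tests were chosen with earlier results of these data known. The rule named every member, the 5 nearest profiles, adjacent genes, and called genes of the lists. The GPI-anchor genes, the C-type lectin group, CHLD1 and the comparison of exon lengths were chosen after values were seen. Alternatives were pseudocount, filter, scaling, replicate block, trend and left-out libraries.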

Additional observations from a re-analysis of the deposited data

How the results depend on the processing

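Under 14 alternatives DsB_g14470 lay at -3.76 to -3.49, a description only, since it was singled out for this difference in these libraries. DsB_g24185 stayed on its side of the threshold in all of them. DsB_g08390 changed sign to 0.0057 (limma adjusted p = 0.977) with columns rescaled to a sum of 1000000, where all genes shifted by 0.17. Members other than DsB_g14470 called higher numbered 0, but 1 with that rescaling, median-of-ratios scaling, quantile normalization or replicates 1 and 2 only, and 0 to 1 with a library left out. The share of all tested genes called higher also moved, from 4.19% in the main fit to 22.9% with rescaling. It was 6.10% with median-of-ratios scaling, 7.56% with quantile normalization, 7.26% in replicates 1 and 2 only and 1.95% to 6.69% with a library left out. Extracellular genes called higher (1) numbered 3 with rescaling, 0 without the filter, without the trend or with the replicate block, and 0 to 1 with a library left out. The all-gene share called higher was 2.17% without the filter, 3.87% without the trend and 2.62% with the replicate block. Extracellular genes called lower (1) numbered 0 without the filter or with rescaling, and 0 to 1 with a library left out. Genes of the whole table called lower numbered 723 in the main fit, 504 without the filter and 551 with rescaling. GPI-anchor genes called higher (0) numbered 5 with rescaling and 1 in replicates 1 and 2 only. The cause of these moves was not tested.

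The labels do not say whether cultures of the same replicate number were paired. Deviations of same-numbered libraries correlated at 0.0246, 0.0776 and -0.135, and those of different numbers at -0.17 to 0.137. These values show no shared deviation by number but cannot settle the pairing. With the replicate block, 813 genes passed in place of 1306, and DsB_g14451 was at 0.48 (limma adjusted p = 0.148). All-gene calls ranged from 586 without replicate 2 of no added iron to 3736 with rescaling, where 85.3% were higher, against 44.6%. At 0 to 9.47 implied reads per library, the quiet members allow no comparison at this depth.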
